A study of Rattus norvegicus with 9 samples.

Results

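Matrix metalloproteinases, the zinc enzymes that cut collagen, elastin and other matrix proteins, and the tissue inhibitors that block them (TIMPs) were followed in rat lung fibroblasts while alveoli form by septation, in which new tissue ridges partition the simple air sacs present at birth. The 10 genes were Mmp2, Mmp3, Mmp9, Mmp11, Mmp12, Mmp13, Mmp14, Timp1, Timp2 and Timp3, out of 14217 genes measured by Affymetrix arrays. A probe set was taken where its only gene symbol in the platform annotation was one of these, which gave 17 probe sets of 31042, and the brightest of a gene over the 9 arrays represented it. All 10 genes were tested, and no filter on low values was used.

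The groups were postnatal day 2 (saccular stage, before septation), day 7 (septation in progress) and day 21 (septation over), with 3 arrays each. An array held cells pooled from 5 pups of a litter at day 2 and from 4 pups at days 7 and 21. No strain, treatment or genetic change is given in the labels. The cells were not cultured: lungs were dispersed with trypsin and collagenase, and the cells that stuck to plastic within a short time were collected, a step that keeps other adherent cells too.

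Defining fibroblast genes were strongly expressed. The 19 fibroblast markers, all measured, averaged log2 10.01 to 10.93 on single arrays, against a median of log2 5.24 to 5.66 over all probe sets. Markers of macrophages were also well expressed, with means of log2 7.34 to 9.61 over 17 measured genes. Intensities are on a linear scale and are given here as log2. The low end here means levels under log2 4.25 (25th percentile of the table), where folds depend on the background. Across probe sets, Pearson's r was 0.976 to 0.988 within a day and 0.88 to 0.974 between days. As an RNA quality measure, the log2 signal of 3′ control probe sets minus that of 5′ ones was taken. For beta-actin it was 0.507 to 0.802 at day 2, 0.711 to 1.177 at day 7 and 0.489 to 0.727 at day 21. For GAPDH it was -0.068 to 0.163, -0.109 to 0.255 and 0.111 to 0.238 on those days. The days overlap, and an effect on the results was not tested. With 3 arrays a day, precision is limited by the number of arrays.

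Metalloproteinases are made as inactive proenzymes and are opened by other proteases or, for some, inside the cell by furin. Collagenases such as Mmp13 cut the fibrillar collagen triple helix, gelatinases (Mmp2, Mmp9) cut denatured and basement membrane collagen, stromelysins (Mmp3) cut proteoglycans and activate other proenzymes, and Mmp12 is the macrophage elastase. Mmp14 is anchored in the membrane and activates Mmp2 together with Timp2. In mice, loss of Mmp14 disturbs alveolar growth and loss of Timp3 enlarges the airspaces.

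Across the 3 days the genes fell into unlike patterns. Mmp3, Mmp12 and Mmp13 were high at day 2, low at day 7 and high again at day 21. Mmp9 moved the same way at the low end, and Mmp11 ran opposite, with its highest level at day 7. Mmp2, Mmp14, Timp1 and Timp2 passed no test between a pair of days, and Timp3 was higher at day 21 than at day 2. Calls are limma tests over all 31042 probe sets at a Benjamini-Hochberg adjusted p under 0.05, and an error after ± is an SE unless named.

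Between day 7 and day 2, 4 of the 10 genes fell and none rose (Mmp3, Mmp9, Mmp12 and Mmp13). Over all 14217 genes, each by its brightest probe set, 11.4% were called in this comparison, 4.41% lower and 7.02% higher. That balance depends on the scaling: of all probe sets, 1068 were called lower and 1707 higher as deposited, against 1272 lower and 902 higher with arrays centred on their medians. Between day 21 and day 7, 5 of the 10 were called, against 38.1% of all genes: Mmp3, Mmp9, Mmp12 and Mmp13 rose, where 13.7% of all genes did, and Mmp11 fell, where 24.4% did. Between day 21 and day 2, Mmp13 and Timp3 rose, 2 of 10 against 24.1% of all genes (8.8% higher and 15.3% lower), a share no larger than the background. The arrays of the paired days did not overlap for 6 of the 10 genes in the first comparison, 6 in the second and 4 in the last, where 33%, 51.2% and 43% of all genes did not. For the 10 genes the median log2 change was -0.43, 0.45 and 0.13 in these comparisons, in that order, beside 0.07, -0.02 and 0.02 over all genes. The comparisons share arrays, so a low day 7 enters both of the first pair.

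**Figure D1:**
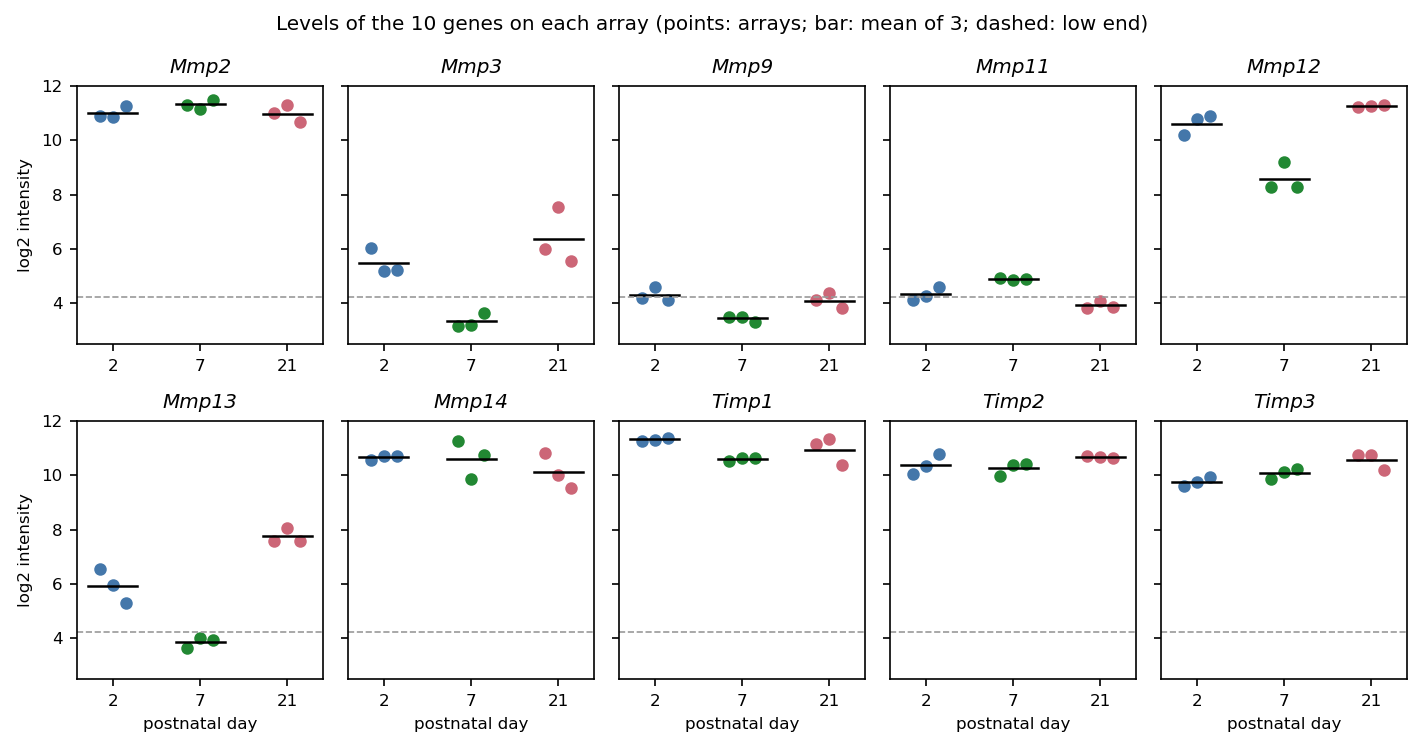
Log2 intensity of each gene's brightest probe set on all 9 arrays, by postnatal day, with the mean of 3 arrays as a bar and the low end (log2 4.25) dashed. Mmp3, Mmp12 and Mmp13 dip at day 7, and Mmp12 stays far above the low end on every array while Mmp3 and Mmp13 fall below it.

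Mmp12, the macrophage elastase, was bright on all arrays. Its log2 level was 10.18, 10.79 and 10.89 on the day 2 arrays, 8.30, 9.20 and 8.27 on the day 7 arrays, and 11.22, 11.28 and 11.29 on the day 21 arrays. Each day is separate from the other days, and day 21 has the narrowest spread (SD 0.035, against 0.53 at day 7 and 0.38 at day 2). Mmp12 was 4.09-fold lower at day 7 than at day 2 (log2 change -2.03 ± 0.26, n = 3 arrays a day, limma adjusted p = 0.00134) and 6.38-fold higher at day 21 than at day 7 (2.67 ± 0.26, adjusted p = 1.24e-05). At day 21 its value exceeded that of day 2 by log2 0.64 ± 0.26 with no overlap of arrays, and this did not pass (adjusted p = 0.102). In these samples of many cells, fewer cells that express a gene and less of its RNA in each cell cannot be told apart.

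Mmp13, collagenase-3, the main collagenase of rodent interstitial collagen and a product of cartilage and bone cells among others, had the widest swing. It stood at log2 6.54, 5.95 and 5.31 on the day 2 arrays, 3.64, 4.00 and 3.95 on the day 7 arrays, and 7.58, 8.07 and 7.59 on the day 21 arrays. All 3 day 7 arrays lay under the low end, and all 3 day 21 arrays lay above every day 2 array. The day 7 mean was 4.21-fold below day 2 (log2 change -2.07 ± 0.27, adjusted p = 0.00155), and day 21 was 14.8-fold above day 7 (3.89 ± 0.27, adjusted p = 1.36e-06). Day 21 also exceeded day 2, by 3.52-fold (1.82 ± 0.27, adjusted p = 0.000829). With 16 added to each intensity before log2, which damps dim values, the changes were -1.35 for day 7 against day 2, 2.92 for day 21 against day 7 and 1.57 for day 21 against day 2, and limma called each of them.

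Mmp3, stromelysin-1, was lower in intensity at day 7 too. Its log2 level was 6.05, 5.21 and 5.23 on the day 2 arrays, 3.16, 3.19 and 3.66 on the day 7 arrays, and 6.00, 7.54 and 5.58 on the day 21 arrays. Days 2 and 21 overlap, and both stand clear of day 7, which lies under the low end. The change was -2.16 ± 0.42 on the log2 scale for day 7 against day 2 (adjusted p = 0.00844) and 3.04 ± 0.42 for day 21 against day 7 (8.22-fold, adjusted p = 0.00016). The difference of 0.88 ± 0.42 between day 21 and day 2 did not pass (adjusted p = 0.167), and it was 0.29 without day 21 replicate 2 and 1.28 without day 21 replicate 3. With 16 added before log2 the first change was -1.24 and missed the threshold (adjusted p = 0.0692), and the second was 1.95 (adjusted p = 0.00302).

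Mmp13, Mmp12 and Mmp3 lie close together in a run of metalloproteinase genes on rat chromosome 8. In the GRCr8 annotation the run holds 10 protein-coding genes, in the order Mmp13, Mmp12, Mmp1b, Mmp3, Mmp1, Mmp10, Mmp8, Mmp27, Mmp20 and Mmp7, with no other protein-coding gene between them. Of these, 6 were on the lists followed here and were measured. Mmp1, Mmp27 and Mmp20 were listed but not measured, and Mmp1b was on no list and was not looked up. The run was chosen after the values were seen. All 6 were called higher at day 21 than at day 7 (13.7% of all genes were). Mmp13, Mmp12 and Mmp3 were already known to rise when the run was chosen, so only Mmp10, Mmp8 and Mmp7 add to that count. Of the 6, Mmp13, Mmp12 and Mmp3 were called lower at day 7 than at day 2, and Mmp10 (-0.47, adjusted p = 0.116), Mmp8 and Mmp7 were not. Mmp10, a second stromelysin, rose by log2 1.46 ± 0.17 between day 7 and day 21 (adjusted p = 4.77e-05), with means of log2 4.86 at day 21 and 3.40 at day 7. Mmp8, the neutrophil collagenase, rose by 0.66 (adjusted p = 0.029) and Mmp7, matrilysin, by 0.60 (adjusted p = 0.0194), Mmp7 with a day 21 mean of log2 4.07 that is still under the low end.

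**Figure D2:**
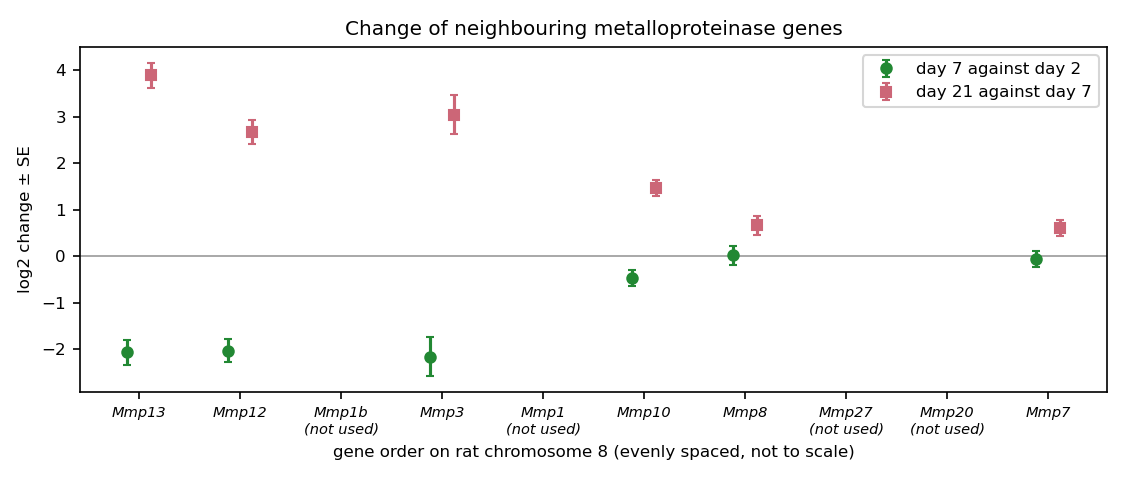
Log2 change ± SE of the genes of the chromosome 8 run that were followed and measured here, for day 7 against day 2 (circles) and day 21 against day 7 (squares). Genes are in order and evenly spaced, and those without values are marked as not used. The day 21 values are all above 0, and the day 7 falls of Mmp13, Mmp12 and Mmp3 lie between -2.16 and -2.03.

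The sequence before the start of these 3 genes was read because they moved together and because the transcription factor AP-1 (Fos and Jun proteins) is a known inducer of collagenase and stromelysin genes. The stretches run from 150 to 15 bases before the start of the gene in RefSeq's promoter table (GRCr8, plus strand), printed 5′ to 3′, with the AP-1 letters TGAGTCA or their other strand TGACTCA in capitals.
Mmp13, chr8:12782679-12782814: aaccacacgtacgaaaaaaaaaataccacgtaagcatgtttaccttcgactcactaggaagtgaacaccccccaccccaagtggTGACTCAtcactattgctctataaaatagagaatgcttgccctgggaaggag
Mmp12, chr8:12866502-12866637: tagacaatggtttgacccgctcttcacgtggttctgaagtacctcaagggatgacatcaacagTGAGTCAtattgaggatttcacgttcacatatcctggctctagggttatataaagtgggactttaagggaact
Mmp3, chr8:12925131-12925266: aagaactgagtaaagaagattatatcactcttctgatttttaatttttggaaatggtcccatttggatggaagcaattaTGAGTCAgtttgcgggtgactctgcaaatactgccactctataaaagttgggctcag

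Each of the 3 stretches holds 1 such match, whose first base lies 66 bases before the start in Mmp13, 87 in Mmp12 and 71 in Mmp3. Of the 10 genes, 7 had an entry in the table. Mmp2, Mmp9 and Mmp14 had none, so they were not searched, although Mmp9 also dipped at day 7. In the 250 bases before the start the letters occurred in Mmp3, Mmp12 and Mmp13 and did not occur in Mmp11, Timp1, Timp2 or Timp3. They occur in 4.05% of the 33469 promoter windows of that length. The letters AGGAAG or CTTCCT, an Ets factor motif, were searched too: they occurred in Mmp3, Mmp13 and Timp1 and in 29.5% of all windows, and overlapped no AP-1 match. A match of letters is a description of sequence and shows no binding.

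Macrophage and cartilage markers moved with Mmp3, Mmp12 and Mmp13, while the lists of other cells did so in part or not. Of 20 macrophage markers 17 were measured. Between day 7 and day 2, 10 of them fell and 0 rose, and between day 21 and day 7, 15 rose and 1 fell. Over all genes 4.41% fell and 7.02% rose in the first interval, and 13.7% rose and 24.4% fell in the second. These shares serve for the marker lists below too. Their summed intensity ranged over 19176 to 22572 at day 2, 7485 to 11591 at day 7 and 24748 to 32572 at day 21. No array value was 0. The means of Cd68, Fcgr2b and Ptprc were well above the low end on every day, while Cd163 was under it by its mean of every day. On day 7 the highest Mmp12 level, in replicate 2, lay on the array with the highest macrophage mean (log2 8.04, against 7.89 in replicate 1 and 7.34 in replicate 3). That array also had the highest day 7 mean of every other marker list except the fibroblast list, 7 of 8 in all. At day 2 Mmp12 and the macrophage mean were both highest in replicate 3 (macrophage mean log2 9.11) and lowest in replicate 1 (8.81). At day 21 both were highest in replicate 3 (macrophage mean 9.61), but replicates 1 and 2 came in opposite order. Mmp12 ran only from log2 11.22 to 11.29 on that day. Replicate 3 was highest for 3 of 8 marker lists at day 2 and for 1 of 8 at day 21. The part of macrophages in the Mmp12 result was not tested.

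Of 19 cartilage markers, such as Col2a1 and Col9a1, 15 were measured. Between day 7 and day 2, 7 fell and 0 rose, and between day 21 and day 7, 11 rose and 0 fell. Their summed intensity ranged over 1409 to 2817 at day 2, 338 to 456 at day 7 and 1041 to 3976 at day 21. At day 7 the means of Col9a1 (log2 3.54), Comp (3.60) and Cnmd (2.98) were under the low end. Array by array, the cartilage mean was highest on day 21 replicate 2 (log2 7.19, against 6.07 and 5.72 in replicates 1 and 3), where Mmp3 and Mmp13 also had their highest level. At day 2 it was highest in replicate 1 (6.73, against 5.87 and 6.10 in replicates 2 and 3), again the array with the most Mmp3 and Mmp13. At day 7 the order differed: the cartilage mean was lowest in replicate 3 (4.33, against 4.55 and 4.78 in replicates 1 and 2), the array with the most Mmp3, and highest in replicate 2, the array with the most Mmp13. The day 21 peak was not particular to cartilage. On day 21 replicate 2 the means of 6 of the 8 marker lists were at their highest of that day, those of mast cells (log2 7.44), epithelium (6.92), mesothelium (6.74), endothelium (6.33) and neutrophils (6.17) among them, and those of macrophages and fibroblasts were not. Without day 21 replicate 2, Mmp3 was still higher at day 21 than at day 7, by log2 2.46, and Mmp13 by 3.73. The part of cartilage cells in these results was not tested.

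**Figure D3:**
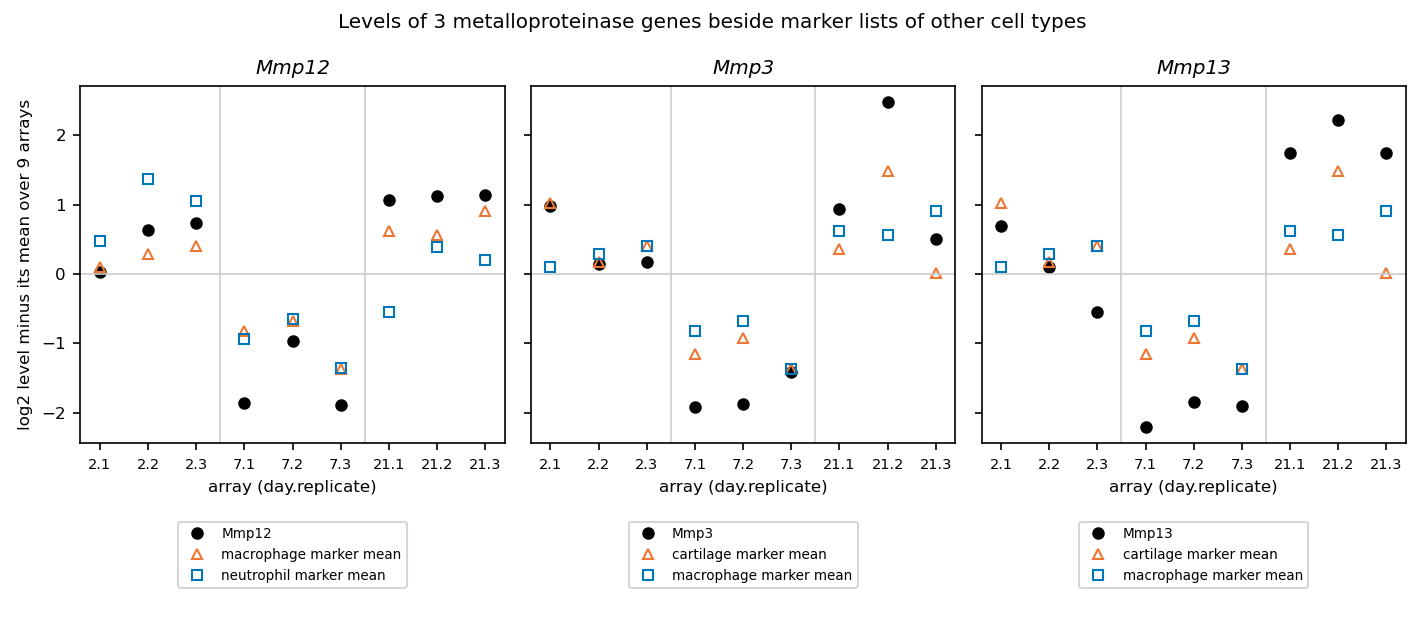
Log2 level minus its own mean over the 9 arrays for Mmp12, Mmp3 and Mmp13 (filled circles) and for the mean of marker lists (open symbols: macrophage and neutrophil beside Mmp12, cartilage and macrophage beside Mmp3 and Mmp13), array by array. Every point of the 3 day 7 arrays lies below 0. At day 21, Mmp3, Mmp13 and the cartilage mean are highest in replicate 2, where 6 of the 8 marker lists were.

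Neutrophil and mast cell markers were followed too. Of 14 neutrophil markers 9 were measured. Between day 7 and day 2, 6 fell, and between day 21 and day 7, 4 rose, with a summed intensity of 1446 to 3905 at day 2, 224 to 443 at day 7 and 462 to 1049 at day 21. The 4 include Mmp8, which also counts in the chromosome 8 run and among the further family members. Cxcr2 was under the low end by its mean of every day. Of 11 mast cell markers 10 were measured. Between day 21 and day 7, 9 of them rose, and for day 7 against day 2 limma called 0 of them (0 at an unadjusted p under 0.05 too). Summed intensities were 255 to 309, 233 to 278 and 811 to 2880 on days 2, 7 and 21. The mast cell mean lay around the low end at day 2 (log2 4.155 to 4.542) and day 7 (4.038 to 4.425). A fall between those days could therefore hardly show. Of 10 measured endothelial markers, 7 fell between day 7 and day 21. Of 15 epithelial markers, 6 rose and 2 fell in that interval, and 1 of 6 mesothelial markers rose. Over all genes 13.7% rose and 24.4% fell in it, and the mesothelial count is close to that share.

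The genes with the profile most like each of the 3 were sought among 13982 other genes, symbols that begin with LOC or RGD left out. The measure was the root mean square (RMS) difference of log2 levels over the 9 arrays, each gene centred on its own mean. For Mmp12 the nearest genes were Ctsz, a lysosomal cathepsin, and Fcer1g, an adaptor of Fc receptors, at 0.27 each. Hcls1, a protein of blood cells, followed at 0.29, beside an RMS of 1.18 for Mmp12 itself about its mean. For Mmp3 they were Cnmd (chondromodulin, 0.43) and Comp (cartilage oligomeric matrix protein, 0.47), both on the cartilage list, and Gfpt2 (0.52), beside 1.39. For Mmp13 they were Mreg (0.47), the cytokine Il6 (0.49) and the zinc transporter Slc39a8 (0.49), beside 1.62. Il6 stood at log2 8.35 at day 2, 7.02 at day 7 and 10.63 at day 21, so that it ended above its day 2 level, as Mmp13 did.

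Mmp9, gelatinase B, is carried by neutrophils and macrophages among others. It was dim throughout, with log2 levels of 4.19, 4.59 and 4.12 at day 2, 3.50, 3.52 and 3.33 at day 7, and 4.12, 4.38 and 3.82 at day 21. All day 7 arrays lay below all others, but 7 of the 9 arrays were under the low end. limma called a change of -0.85 ± 0.19 for day 7 against day 2 (adjusted p = 0.0148) and of 0.66 ± 0.19 for day 21 against day 7 (adjusted p = 0.0172). Dropping day 2 replicate 2 ended the first call (adjusted p = 0.0664). Dropping day 7 replicate 3 ended the second (0.0551 after adjustment), as did dropping day 21 replicate 2 (0.0722). With 16 added before log2 the changes were -0.41 (adjusted p = 0.0375) and 0.31, and the second was no longer called (adjusted p = 0.0523). The second Mmp9 probe set, dimmer still, gave -0.44 and 0.35 and was not called.

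Mmp11, stromelysin-3, a furin-activated enzyme of stromal cells, ran the other way. Its levels were log2 4.12, 4.29 and 4.60 at day 2, 4.92, 4.87 and 4.89 at day 7, and 3.85, 4.09 and 3.86 at day 21. No array of a day overlapped those of another, and all day 21 arrays were under the low end. Day 21 was 1.95-fold below day 7 (log2 change -0.96 ± 0.16, adjusted p = 0.000635). The difference of 0.56 ± 0.16 between day 7 and day 2 just missed (adjusted p = 0.0521), and its adjusted p ran from 0.0288 to 0.226 over 16 alternative settings. It was 0.0492 with dim probe sets left out, 0.183 after a further quantile normalization (change 0.44) and 0.226 with arrays centred on their medians (0.46). With 16 added before log2, the change to day 21 was -0.55 (adjusted p = 0.00136). Of the 19 fibroblast markers, 7 fell, 1 rose and 11 were not called in the same interval, where 24.4% of all genes fell. The markers' median log2 change was -0.035. Their summed intensities were 43433 to 57805 at day 21 and 59997 to 70062 at day 7. Their part in the Mmp11 result was not tested.

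Mmp2, gelatinase A, the typical metalloproteinase of fibroblasts, was bright and steady. Its levels were log2 10.89, 10.87 and 11.27 at day 2, 11.32, 11.17 and 11.50 at day 7, and 11.00, 11.29 and 10.66 at day 21. The days overlap, and each change between them missed the threshold. The 95% interval was -0.10 to 0.74 for day 7 against day 2, -0.76 to 0.07 for day 21 against day 7 and -0.44 to 0.39 for day 21 against day 2, so a change as large as 2-fold lies outside all of them. The second Mmp2 probe set was near the low end, at log2 4.09 to 5.34, and was not called.

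Mmp14, the membrane-bound activator of Mmp2, was bright but uneven. It stood at log2 10.56, 10.71 and 10.71 at day 2, 11.25, 9.85 and 10.73 at day 7, and 10.84, 9.99 and 9.52 at day 21. The day 7 arrays overlap both other days. The changes were -0.05 ± 0.35, -0.49 ± 0.35 and -0.54 ± 0.35 for day 7 against day 2, day 21 against day 7 and day 21 against day 2, with adjusted p = 0.966, 0.343 and 0.312. A second Mmp14 probe set was dimmer and tighter, at log2 7.80 to 8.32 over all arrays, and was not called either (day 21 against day 7, -0.29 ± 0.16, adjusted p = 0.206). The low value of day 7 replicate 2 in the first probe set (9.85) was not seen in the second, where that array was highest (8.32).

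**Figure D4:**
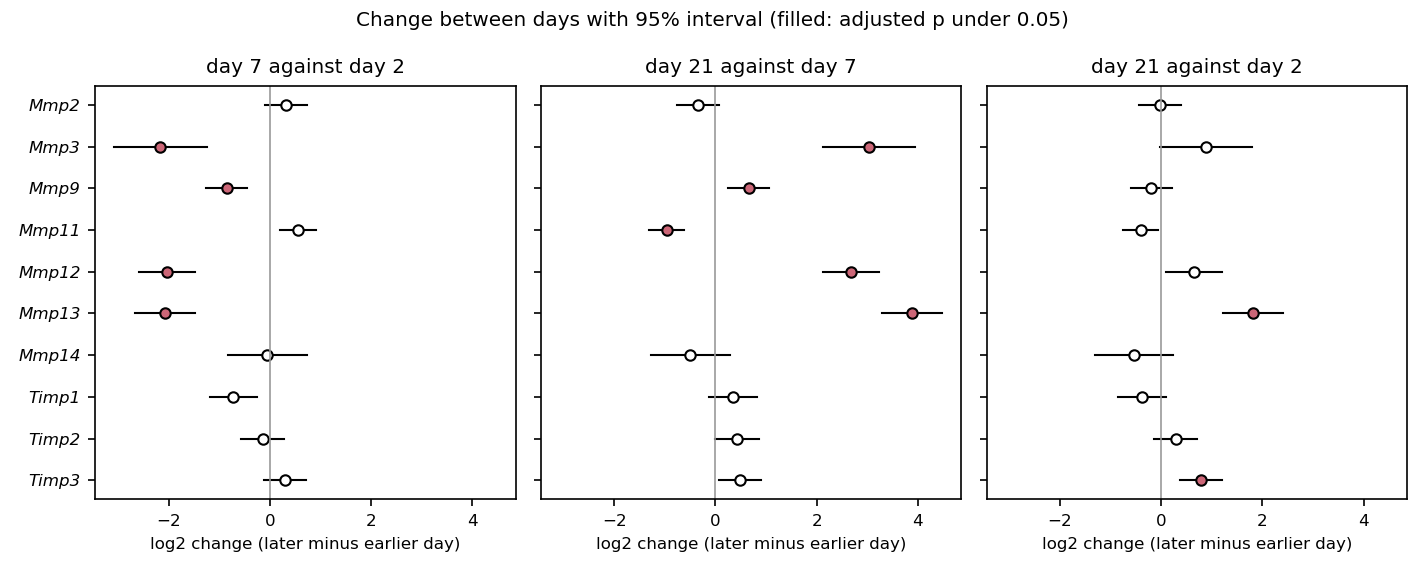
Log2 change of each gene with its 95% interval in the 3 comparisons of days, filled where limma's adjusted p was under 0.05. The wide intervals of Mmp3 and Mmp14 come beside narrow ones for Mmp11, Mmp2 and the inhibitors.

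Timp1, a soluble inhibitor that is induced in injury and inflammation, had log2 levels of 11.28, 11.31 and 11.37 at day 2, 10.52, 10.65 and 10.64 at day 7, and 11.14, 11.31 and 10.37 at day 21. Every day 7 array was below every day 2 array, while the day 21 arrays overlapped both, with replicate 3 lowest of all. The difference for day 7 against day 2 was -0.72 ± 0.22 and missed the threshold (adjusted p = 0.062), with adjusted p from 0.00966 to 0.161 over 16 alternative settings. It passed after a further quantile normalization (adjusted p = 0.0362) and with arrays centred on their medians (adjusted p = 0.0409). Without day 21 replicate 3 it passed too (adjusted p = 0.00966), and the difference for day 21 against day 7 was then 0.63 (adjusted p = 0.0115), against 0.34 ± 0.22 (adjusted p = 0.279) with all arrays.

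Timp2, which inhibits metalloproteinases and also takes part in Mmp2 activation, had log2 levels of 10.06, 10.34 and 10.76 at day 2, 9.96, 10.37 and 10.42 at day 7, and 10.72, 10.67 and 10.64 at day 21. The day 21 arrays were close together and above all day 7 arrays, yet within the range of day 2. Its largest difference, 0.43 ± 0.20 for day 21 against day 7, did not pass (adjusted p = 0.129, 95% interval -0.001 to 0.854). The second Timp2 probe set gave 0.43 ± 0.25 (adjusted p = 0.233) in that comparison.

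Timp3, the inhibitor that stays bound to the matrix and also blocks ADAM and ADAMTS proteases, was the only inhibitor called between a pair of days. Its levels were log2 9.61, 9.74 and 9.95 at day 2, 9.87, 10.11 and 10.25 at day 7, and 10.74, 10.74 and 10.18 at day 21. Every day 21 array was above every day 2 array, with day 7 in between and overlapping both. Timp3 was 1.72-fold higher at day 21 than at day 2 (log2 change 0.78 ± 0.19, adjusted p = 0.0136). All 4 Timp3 probe sets were called higher in this comparison, the others by 0.60, 0.82 and 0.99 (adjusted p = 0.0423, 0.0101 and 0.0338). Leaving out day 2 replicate 1, day 21 replicate 1 or day 21 replicate 2 left the brightest probe set just over the threshold (adjusted p = 0.0518, 0.0523 and 0.0531). For day 21 against day 7 the brightest gave 0.48 ± 0.19 and missed (adjusted p = 0.081), while 2 of the other probe sets were called, at 1.18 and 0.56, and the mean of all 4 passed (0.62, adjusted p = 0.00929). Over 16 alternative settings this adjusted p ran from 0.00929 to 0.234.

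**Figure D5:**
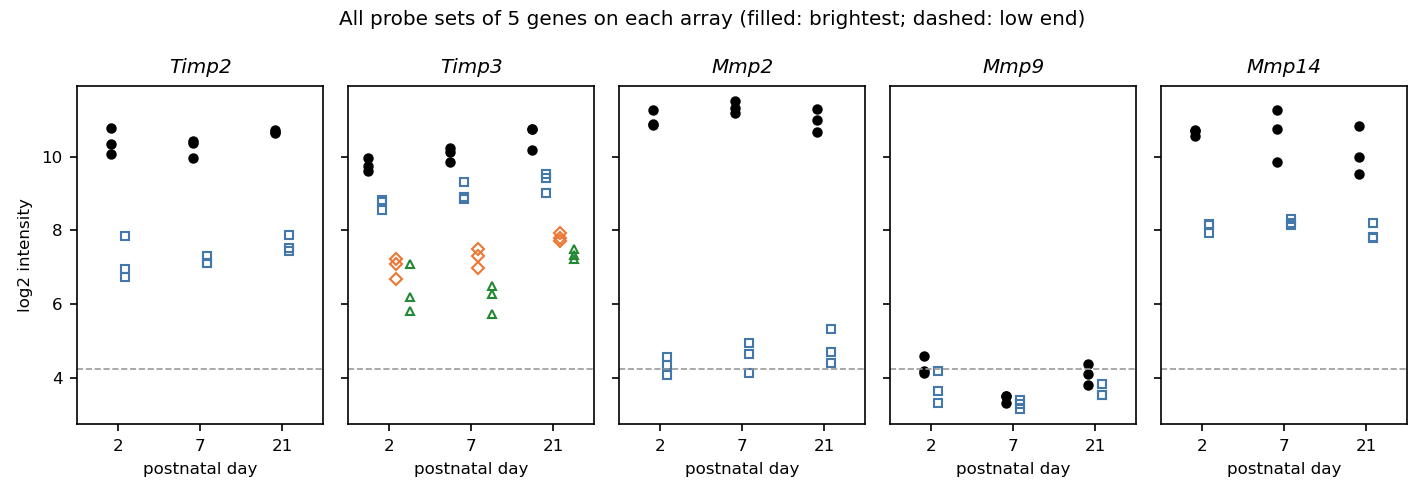
Log2 intensity of all probe sets of Timp2, Timp3, Mmp2, Mmp9 and Mmp14 on each array, the brightest filled. The 4 Timp3 probe sets lie higher at day 21 than at day 2, and the brightest Mmp14 probe set spreads more than the other.

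The contrast of day 7 with the mean of days 2 and 21 puts the dip and the peak in 1 value. It was -2.98 ± 0.24 for Mmp13, -2.60 ± 0.36 for Mmp3, -2.35 ± 0.22 for Mmp12 and -0.76 ± 0.16 for Mmp9, and 0.76 ± 0.14 for Mmp11 (limma adjusted p = 1.09e-05, 0.000284, 2.55e-05, 0.00442 and 0.00171). In this contrast 5 of the 10 genes were called, 4 lower and 1 higher, against 30.5% of all genes, 9.93% lower and 20.6% higher. For Timp1 it was -0.53 ± 0.19 (adjusted p = 0.0618), and for Mmp2 0.33 ± 0.17 (adjusted p = 0.196).

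Of 17 further family members written down, Timp4 included, 11 were measured, and for day 7 against day 2 limma called 0 of them (3 at an unadjusted p under 0.05). Between day 21 and day 7, 3 rose (Mmp10, Mmp8 and Mmp7) and 3 fell, where 13.7% of all genes rose and 24.4% fell. The log2 change was -1.51 ± 0.28 for Mmp19 and -1.18 ± 0.18 for Mmp16, a membrane-bound enzyme (adjusted p = 0.00142 and 0.000311). The last of the 3, Mmp15, also membrane-bound, fell by 0.60 (adjusted p = 0.0189) and is named after its value was seen.

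Of 23 genes that activate, dock, clear or otherwise restrain metalloproteinases, 20 were measured. For day 7 against day 2, 5 rose and 2 fell, and for day 21 against day 7, 6 rose and 5 fell. Over all genes 7.02% rose and 4.41% fell in the first, and 13.7% rose and 24.4% fell in the second. Reck, a membrane-anchored inhibitor of metalloproteinases, was at log2 9.12, 9.86 and 8.35 on days 2, 7 and 21 and so ran opposite to Mmp12, with changes of 0.74 ± 0.17 and -1.50 ± 0.17 (adjusted p = 0.0218 and 4.67e-05). Plaur, the urokinase receptor, had means of log2 10.26, 8.68 and 10.39, and Cd44, the hyaluronan receptor to which Mmp9 binds, 11.05, 10.08 and 11.54. Both fell to day 7 (-1.58 and -0.97) and rose to day 21 (1.71 and 1.46). Itgb3, an integrin chain, was higher at day 7 than at day 2 by 0.78. Serpine2, a protease inhibitor, fell between day 7 and day 21 (log2 change -2.57 ± 0.19, adjusted p = 1.75e-06), and Pcsk5, a proprotein convertase, was 1.09 above day 2 at day 21.

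Of 21 substrate genes, all measured, 1 fell for day 7 against day 2 and 0 rose. That was Spp1 (osteopontin), which macrophages make too (-4.01 ± 0.61, adjusted p = 0.00312). For day 21 against day 7, 12 fell and 3 rose, where 24.4% of all genes fell and 13.7% rose. Fbn2 (-3.24), Tnc (-2.77) and Nid1 (-2.43) fell, and Spp1 rose (3.62). Eln, the elastin gene whose product Mmp12 cuts, was at log2 11.54, 11.83 and 11.88 on days 2, 7 and 21 and was called in no comparison of 2 days. It is named here for that value, after it was seen.

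Of 25 inducers and transcription factors of metalloproteinase genes, 23 were measured. For day 7 against day 2, 6 rose and 5 fell, and for day 21 against day 7, 9 rose and 2 fell. The shares of all genes were 7.02% higher and 4.41% lower in the first, and 13.7% higher and 24.4% lower in the second. The interleukin 1 antagonist Il1rn (-3.82 and 3.42) and Il6 (-1.33 and 3.62) fell at day 7 and rose at day 21. The AP-1 subunit Fosl1 was lower at day 7 than at day 2, with a log2 change of -1.33 ± 0.23 (adjusted p = 0.00545). Fosl1 is named for the size of its change. The other AP-1 genes of the list (Fos, Fosb, Fosl2, Jun, Junb and Jund) are not given here, nor are the 6 genes that rose. The part of AP-1 in the metalloproteinase results was not tested. Il1a changed by -1.38 ± 0.21 for day 7 against day 2 (adjusted p = 0.00336). Etv4, an Ets factor, changed by -2.91 between day 7 and day 21. Tgfb1 rose by 2.71 ± 0.43 in that interval (adjusted p = 0.000491). The lists were written with earlier results of these data known, so their counts are a description.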

How the data were processed

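RNA of adherent rat lung cells was measured on 9 Affymetrix arrays, 3 pools from separate litters at each of postnatal days 2, 7 and 21. The authors deposited linear intensities per probe set. The submitters' processing notes name RMA and affy; their versions and settings: not given in the sources used here. From the deposited intensities, log2 values were taken with no further normalization, and 57 control probe sets of 31099 were left out. A mean per day was fitted with limma 3.58.1 (R 4.3.3) to the other 31042, with Benjamini-Hochberg adjustment over all of them. The script was tested on simulated data with known changes.

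In the platform annotation 20826 probe sets had 1 gene symbol, 436 several and 9780 none. Of those with 1 symbol, 20758 had an Entrez ID in RefSeq's gene table (GRCr8), which changed 0 symbols. The genes followed and all lists were chosen with earlier results of these data known. From the lists, at most 4 called genes with the largest change were to be named per comparison, and exceptions are marked. The 3 most alike profiles were named for members called with a log2 change of at least 1. Promoter sequences and positions are RefSeq's (GRCr8). No genome was used. Litter numbers repeat across days, and the labels do not say whether a number marks the same litter. Deviations from the day means of same-numbered arrays correlated at 0.405, 0.077 and 0.223 between days 2 and 7. Between day 21 and the other days they correlated at -0.237 to 0.051. The link was not common to all days, so no block was used, and a block fit is given below as an alternative.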

Additional observations from a re-analysis of the deposited data

How the results depend on the processing

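Of the members' values under alternative settings, 598 kept direction and side of the threshold, 21 passed anew, 8 no longer passed and 9 turned sign, the last all uncalled. In some settings the change itself could not move, and only its error and adjusted p could. These were the litter block, limma's trend and robust option, leaving out dim probe sets, and leaving out an array of a day not compared. With the mean over all probe sets of a gene, Mmp14 gave 0.051 for day 7 against day 2 and Mmp2 0.23 for day 21 against day 2. Leaving out 1 array each gave -0.30 to 0.051 for Timp2 and -0.37 to 0.33 for Mmp14 (day 7 against day 2), -0.18 to 0.14 for Mmp2 (day 21 against day 2), and -0.10 to 0.60 for Mmp14 and -0.18 to 0.019 for Timp3 (day 7 against the mean of the other days). Members called for day 21 against day 2 then numbered 1 to 3. Probe sets called for day 7 against day 2 numbered 1523 (without day 2 replicate 2) to 2969 (without day 21 replicate 3), with 1663, 1697 and 1726 without day 2 replicate 3, day 7 replicate 1 and day 7 replicate 2. The cause was not tested.

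With litter number as a replicate block, 2503, 9279 and 5817 probe sets were called for day 7 against day 2, day 21 against day 7 and day 21 against day 2, and 4, 5 and 2 members. Correlations of same-numbered arrays ran from -0.237 to 0.405. The share of called probe sets that were higher was, in the same order of comparisons, 61.5%, 36.6% and 36% as deposited, 53.5%, 48.5% and 47.3% after quantile normalization, and 41.5%, 48% and 39.6% with arrays centred on their medians. For day 7 against the mean of the other days it was 66.4%, 55.7% and 53.2%. Centring put the median of all probe sets for day 21 against day 7 at 0.126, against 0.015 as deposited. Mmp9 is not tested where dim probe sets are left out. Signal near background limits Mmp9, Mmp11 and the day 7 values of Mmp3 and Mmp13.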
